A study of Mus musculus with 16 samples.

Results

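Interferon-inducible GTPases were described in bulk RNA-seq of myeloid cells that had entered the tissue between tendon graft and bone after reconstruction of the anterior cruciate ligament (ACLR) in mice. The members are the 10 genes Gbp2, Gbp3, Gbp4, Gbp5, Gbp7, Gbp8, Gbp9, Iigp1, Irgm1 and Igtp, chosen by name among the 20200 genes of the count table. Wild-type male C57BL/6 mice (C57BL/6J in the study's methods), 12 weeks old at surgery, gave the cells. Each library came from the cells of several pooled mice, so 2 libraries of a group show the spread between pools. The number of mice the study used is too small for a separate pool per library, so populations of a day were taken to share pools by replicate number. There were 16 libraries, 2 for each of 4 sorted populations on day 1 and on day 14 after surgery. CD9+ macrophages were live, lineage-, CD45+, Ly6G-, CD11b+, F4/80+ cells with surface CD9, and CX3CR1+ macrophages were the F4/80+ cells with CX3CR1 but no CD9. F4/80- myeloid cells lacked that macrophage antigen, and neutrophils were the Ly6G+ cells. Every group had undergone surgery under anaesthesia with buprenorphine afterwards, so the comparisons are between populations on a day and between days within a population.

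The members belong to the dynamin-like and Ras-like GTPase families that cells make in response to interferon. The guanylate-binding proteins (GBPs) assemble on pathogen vacuoles and on bacteria in the cytosol, break up these membranes and help caspase-11 and the AIM2 inflammasome to sense what is released. Among the immunity-related GTPases (IRGs), Iigp1 is an effector that coats parasite vacuoles, while Irgm1 and Igtp (Irgm3) sit on the cell's own membranes and keep the effectors off them. Interferon-gamma acts on genes through gamma-activated sites (GAS), and type I interferon acts through interferon-stimulated response elements (ISRE), which IRF9-containing complexes and IRF1 bind.

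The libraries held 10587857 to 19814119 counts each on day 1 and 9233952 to 12721779 on day 14. Libraries of a group correlated at 0.954 to 0.993 in log2 CPM. CPM are counts per 1000000 after scaling by TMM factors, which were 0.752 to 0.781 in neutrophils and 0.897 to 1.16 in the other populations. The sort labels were checked against marker genes. The summed level of 8 macrophage markers was 1025 to 1878 CPM in CD9+ and CX3CR1+ libraries, 590 to 592 CPM in neutrophils on day 1 and 174 to 222 CPM in the other libraries. The 6 neutrophil markers summed to 18122 to 39916 CPM in neutrophils, 10244 to 12259 CPM in F4/80- cells, 2077 to 5522 CPM in CD9+ cells and 416 to 482 CPM in CX3CR1+ cells. CD9+ libraries also held all 4 eosinophil markers (Siglecf, Prg2, Epx, Ccr3), at a sum of 491 to 562 CPM on day 1 and 5826 to 9400 CPM on day 14, against 17.0 to 76.1 CPM in CX3CR1+ libraries. The 5 basophil or mast cell markers summed to 708 to 1499 CPM in F4/80- libraries and to at most 1.25 CPM in CX3CR1+ libraries. In bulk libraries of this kind, fewer cells that express a gene and less RNA of it per cell cannot be told apart.

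The genes lie in few places on mm10. On chromosome 3, Gbp5 (142493978 to 142522344), Gbp7 (142530342 to 142550149), Gbp3 (142560026 to 142573209) and Gbp2 (142620602 to 142638008) follow each other on the plus strand. Gbp8, Gbp9 and Gbp4 have overlapping gene models on the minus strand of chromosome 5, between 105014150 and 105139586, and share 60 to 61 exon bases there. Irgm1 (48861968 to 48871683, minus strand) and Igtp (58199556 to 58207591, plus strand) are on chromosome 11. Of the exon bases of Igtp, 8.01% also belong to Irgm2, and 11.3% of those of Gbp7 also belong to the model Gm43802. GBP genes are similar in sequence, and the handling of reads that match several of them is not given in the sources used here, so the split of reads among close copies is uncertain.

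Because the members share an inducer, the promoter sequences are shown first. RefSeq promoter windows, from 250 bases before to 50 after the start on GRCm38.p6, were searched for 6 of the 10 members. Gbp4, Gbp8, Gbp9 and Iigp1 were not searched. ISRE was searched as GAAANNGAAA or its complement TTTCNNTTTC, and GAS as the palindrome TTCNNNGAA, where N is any base. An ISRE match was found in all 6 members, against 3.44% of 32851 windows of all genes and 3.35% of the 11305 windows of genes tested below. A GAS match was found in 3 of them, Gbp5, Gbp7 and Igtp, against 8.3% of all windows, and 0.454% of all windows held both motifs. These matches describe letters in a window and are not evidence of binding. In the 130-base stretches printed here, 5′ to 3′ along the strand of the gene, capitals mark ISRE and GAS matches, which abut or overlap in some genes. The stretches are chr3:142620496-142620625 for Gbp2, chr3:142559914-142560043 for Gbp3, chr3:142496684-142496813 for Gbp5, chr3:142530206-142530335 for Gbp7, chr11:48871421-48871550 for Irgm1 and chr11:58199426-58199555 for Igtp.
Gbp2: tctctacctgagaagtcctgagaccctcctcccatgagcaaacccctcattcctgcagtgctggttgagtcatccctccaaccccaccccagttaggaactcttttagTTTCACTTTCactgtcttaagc
Gbp3: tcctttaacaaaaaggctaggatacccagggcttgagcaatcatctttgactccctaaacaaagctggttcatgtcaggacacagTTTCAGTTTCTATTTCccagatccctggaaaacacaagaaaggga
Gbp5: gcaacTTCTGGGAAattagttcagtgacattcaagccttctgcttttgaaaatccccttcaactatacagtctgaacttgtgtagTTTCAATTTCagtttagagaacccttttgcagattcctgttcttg
Gbp7: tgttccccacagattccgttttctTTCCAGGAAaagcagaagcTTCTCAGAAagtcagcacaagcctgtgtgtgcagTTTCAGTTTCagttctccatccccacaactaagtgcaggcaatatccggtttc
Irgm1: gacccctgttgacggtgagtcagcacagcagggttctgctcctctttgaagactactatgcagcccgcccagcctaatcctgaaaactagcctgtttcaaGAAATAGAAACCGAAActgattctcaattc
Igtp: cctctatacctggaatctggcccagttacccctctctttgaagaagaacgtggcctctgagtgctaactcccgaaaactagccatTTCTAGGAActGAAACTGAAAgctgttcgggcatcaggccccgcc

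Gbp3 and Irgm1 each had 2 overlapping ISRE matches and no GAS match, whereas Gbp7 had 1 ISRE match downstream of 2 GAS matches. In Igtp the GAS match ended 2 bases before the ISRE match. The ISRE match of Gbp5 lay further from its RefSeq start than those of the other members, from -165 to -156, and a second GAS match of Gbp5, from -52 to -44, lies outside the printed stretch. A second RefSeq window of Gbp3 held neither motif.

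**Figure D1:**
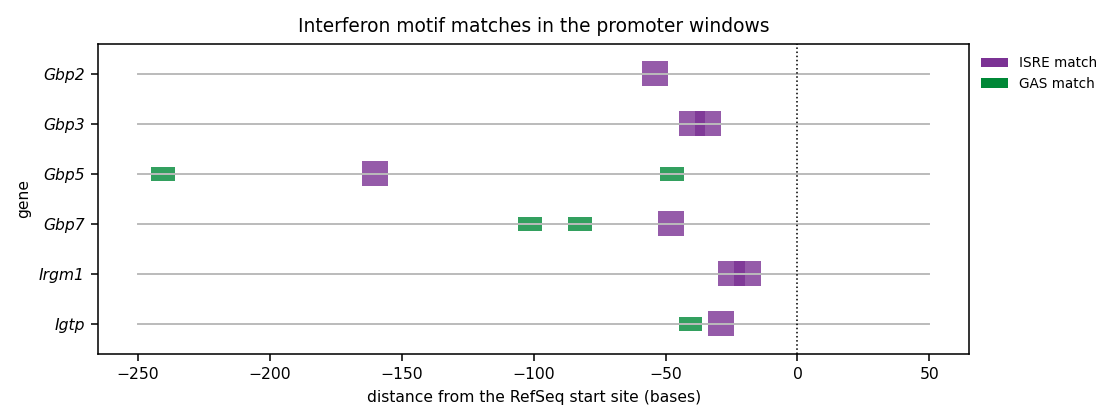
Positions of ISRE (purple) and GAS (green) matches in the promoter windows of 6 members. The horizontal axis is the distance from the RefSeq start site in bases, and each row is a gene. All 6 rows carry an ISRE match, and in 5 of them, all but Gbp5, it lies between -59 and -15.

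Gene levels were compared per kilobase of exon, as the mean over the 8 groups. On this scale Gbp3 (8.67 CPM per kb) and Gbp2 (8.49) led, followed by Gbp7 (5.24), Igtp (3.96), Irgm1 (3.27), Gbp9 (2.38) and Gbp5 (1.11). Gbp4 (0.20), Gbp8 (0.13) and Iigp1 (0.11) were close to the limit of detection. This order did not hold in neutrophils, where Gbp3, at 1.78 CPM per kb on day 1 and 0.62 on day 14, lay below Gbp2, Gbp7, Igtp and Irgm1. A gene was tested if its mean reached 3 CPM in at least 1 of the 8 groups. This held for 11998 genes and 8 of the 10 members, all but Gbp8 and Iigp1. Gbp4 passed through CX3CR1+ macrophages alone, so its differences from the other populations are a description, and counts and medians are also given over the other 7 members, which passed in at least 3 populations. Called genes differed at least 2-fold, a log2 fold change of 1 or more in size, with an adjusted p under 0.05 in the edgeR quasi-likelihood test (Benjamini-Hochberg, over all genes tested).

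Among the GBPs of chromosome 3, Gbp3, which acts with other GBPs in the response to bacterial lipopolysaccharide in the cytosol, separated the populations most evenly. It stood at 62.2 and 48.8 CPM in CX3CR1+ macrophages on day 1 and at 71.5 and 66.1 CPM on day 14. In CD9+ macrophages it was 29.6 and 35.2 CPM on day 1 and 26.6 and 23.9 CPM on day 14, and F4/80- cells had 18.6 and 18.01 CPM and then 22.2 and 14.5 CPM. Neutrophils had the lowest levels, 7.35 and 4.30 CPM on day 1 and 1.81 and 2.26 CPM on day 14. Both days of CX3CR1+ macrophages thus lay above all other groups, and among neighbours in the order of levels only the 2 days of F4/80- cells overlapped.

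Gbp2, an early interferon-gamma response gene that recruits other GBPs to vacuoles, was also highest in CX3CR1+ macrophages on day 14, at 42.5 and 43.8 CPM, after 37.6 and 24.1 CPM on day 1. Neutrophils reached a similar range on day 1, 40.6 and 26.6 CPM, but had 15.5 and 14.1 CPM on day 14. CD9+ macrophages had 8.91 and 15.4 CPM on day 1 and 26.4 and 17.0 CPM on day 14, and F4/80- cells had 4.99 to 8.49 CPM. Unlike Gbp3, Gbp2 thus overlapped between neutrophils and CX3CR1+ macrophages on day 1, and its CD9+ libraries lay higher on day 14 than on day 1.

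Gbp5, a GBP that promotes assembly of the NLRP3 inflammasome, was 12.91 and 12.96 CPM in CX3CR1+ macrophages on day 1 and 19.96 and 20.23 CPM on day 14. CD9+ macrophages had 6.01 and 6.23 CPM on day 1 and 10.9 and 3.95 CPM on day 14, F4/80- cells 3.26 to 5.12 CPM and neutrophils 1.34 to 3.07 CPM. Its libraries of CX3CR1+ macrophages did not overlap any other group. Gbp7 differed least. Its levels were 36.0 and 40.5 CPM in CX3CR1+ macrophages on day 1 and 30.6 and 33.9 CPM on day 14, and 45.6, 33.4, 36.5 and 30.6 CPM in neutrophils over the same days. CD9+ macrophages had 23.7 to 29.0 CPM and F4/80- cells 15.4 to 24.6 CPM. Of the 7 pairs of neighbours in its order of groups, 6 overlapped.

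On chromosome 5, Gbp9 had 29.4 and 20.1 CPM in CX3CR1+ macrophages on day 1 and 24.8 and 21.8 CPM on day 14. F4/80- cells nearly lacked it, at 3.66 and 0.733 CPM and then 1.45 and 0.816 CPM. The CD9+ libraries had 13.01 and 14.3 CPM on day 1 and later 8.25 and 10.9 CPM, and neutrophils had 10.2 and 6.67 CPM and then 15.9 and 14.8 CPM. Gbp9 was the member whose level on day 14 in neutrophils lay above that on day 1 in every library. Gbp4, a GBP of low level throughout, reached 4.48 and 2.25 CPM in CX3CR1+ macrophages on day 1 and 4.10 and 4.18 CPM on day 14. CD9+ macrophages had 0.566 and 1.06 CPM and then 3.74 and 1.52 CPM, and the 8 libraries of F4/80- cells and neutrophils had at most 0.976 CPM.

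Of the IRGs, Irgm1 was 30.5 and 20.6 CPM in CX3CR1+ macrophages on day 1 and 34.8 and 47.5 CPM on day 14. CD9+ macrophages had 18.2 and 7.39 CPM and then 16.4 and 17.1 CPM, F4/80- cells 8.29 to 14.4 CPM, and neutrophils 25.0 and 16.2 CPM and then 14.1 and 12.7 CPM. Igtp, like Gbp7, was in the same range in neutrophils as in CX3CR1+ macrophages, with 8.83 and 10.6 CPM in CX3CR1+ macrophages on day 1, 10.2 and 11.7 CPM on day 14, and 16.2, 6.06, 11.6 and 9.78 CPM in the 4 neutrophil libraries. It was lower in CD9+ macrophages (5.47 to 7.42 CPM) and F4/80- cells (3.13 to 5.07 CPM).

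**Figure D2:**
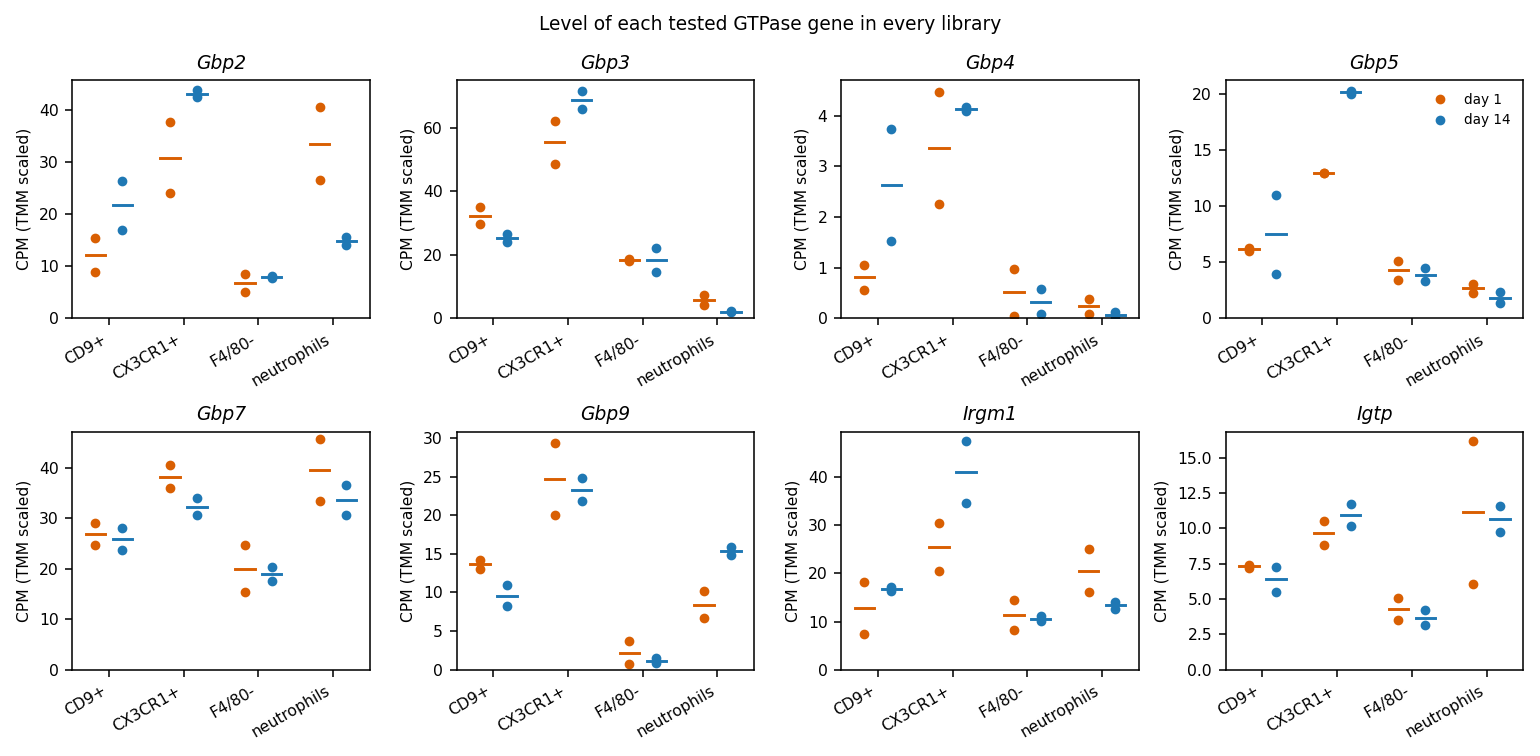
CPM of the 8 tested members in each of the 16 libraries, by population on the horizontal axis. Points are single libraries, short lines are the mean of 2, and colour gives the day (orange 1, blue 14). Points of CX3CR1+ macrophages lie above those of CD9+ macrophages of the same day in all 8 panels, while Gbp7 and Igtp reach the same range in neutrophils.

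The comparison of CX3CR1+ with CD9+ macrophages addresses how the F4/80+ populations differ. On both days all 8 tested members were higher in the mean of CX3CR1+ macrophages, and in each of them both CX3CR1+ libraries lay above both CD9+ libraries of the day. Over all genes tested this held for 23.1% on day 1 and 33.8% on day 14. The median log2 difference of the 7 members without Gbp4 was 0.86 on day 1 and 1.28 on day 14, beside -0.04 and -0.01 over all genes tested. On day 1, 1 member was called, Gbp2, with a log2 fold change of 1.36 (SE 0.32, adjusted p = 0.0096, edgeR). Over all genes tested, 8.23% were called in this comparison, 1.88% as higher. Gbp3 missed the fold threshold (log2 0.78, SE 0.23, edgeR adjusted p = 0.029). Gbp5 (log2 1.08, SE 0.39), Irgm1 (0.97, SE 0.36) and Gbp4 (2.08, SE 0.93) did not pass, at edgeR adjusted p of 0.074, 0.080 and 0.15. The call of Gbp2 was lost without CX3CR1+ replicate 1 of day 1 (log2 1.02, edgeR adjusted p = 0.10) and without CD9+ replicate 1 of day 1 (log2 1.00, edgeR adjusted p = 0.055), and with only the groups compared (edgeR adjusted p = 0.091). With scaling by library size only, which moved the median of all genes by 0.24, 4 members were called. With the replicate number as a block 2 were, Irgm1 being added (log2 1.06, edgeR adjusted p = 0.0047).

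On day 14, 4 members were called higher in CX3CR1+ macrophages, and none lower. The share of all genes tested that was called was 14.2%, and 4.55% were called higher. Gbp3 was higher by a log2 fold change of 1.45 (SE 0.23, adjusted p = 0.00024, edgeR), Gbp5 by 1.43 (SE 0.39, edgeR adjusted p = 0.013), Irgm1 by 1.29 (SE 0.36, edgeR adjusted p = 0.014) and Gbp9 by 1.28 (SE 0.44, edgeR adjusted p = 0.042). Gbp2, at 0.99 (SE 0.31, edgeR adjusted p = 0.029), was just under the fold threshold, and was called with the replicate block (1.01, edgeR adjusted p = 0.023). Igtp (0.78, SE 0.39) and Gbp7 (0.32, SE 0.22) did not pass, and the 95% interval of Gbp7 ran from -0.16 to 0.79. The calls of Gbp5, Irgm1 and Gbp9 rested on single libraries, since 1 member was called without CD9+ replicate 2 or without CX3CR1+ replicate 2 of day 14, and 2 without CX3CR1+ replicate 1. Irgm1 and Gbp9 were also lost without CD9+ replicate 1 of day 14, and Gbp9 in 9 of the 16 fits that leave out a library, some of them from other groups. Gbp3 was called in each of these fits, with a log2 difference of 1.39 to 1.53. The eosinophil and neutrophil marker sums of CD9+ libraries given above were higher than those of CX3CR1+ libraries on both days. So were the sums of 5 basophil or mast cell markers (89.5 to 259 against at most 1.25 CPM) and of 3 platelet markers (91.5 to 181 against 2.09 to 31.5 CPM), while 5 monocyte markers summed to 887 to 1183 CPM in CD9+ and 2123 to 2946 CPM in CX3CR1+ libraries. Their part in these differences was not tested.

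Against F4/80- myeloid cells the difference was larger. On day 1, 7 of the 8 tested members were called higher in CX3CR1+ macrophages, where 21.1% of all genes tested were called, 10.2% as higher. On day 14, 7 were called as well, beside 21.5% of all genes, 11.1% as higher. The largest were those of Gbp9, with log2 fold changes of 3.50 (SE 0.48, adjusted p = 3.3e-05, edgeR) on day 1 and 4.34 (SE 0.54, edgeR adjusted p = 1.3e-05) on day 14. Gbp2 was higher by 2.20 (SE 0.33) and 2.46 (SE 0.33), Gbp3 by 1.60 (SE 0.23) and 1.90 (SE 0.23), and Gbp5 by 1.60 (SE 0.39) and 2.38 (SE 0.41). Irgm1 was higher by 1.17 (SE 0.35) and 1.96 (SE 0.37) and Igtp by 1.17 (SE 0.38) and 1.57 (SE 0.40). The values of Gbp4, 2.72 (SE 0.92) and 3.69 (SE 1.04), rest on few counts and on a gene admitted through CX3CR1+ macrophages. Without Gbp4, 6 of 7 members were called on each day. The member not called was Gbp7, at 0.93 (SE 0.22) and 0.77 (SE 0.22), both with an adjusted p under the threshold (0.0033 and 0.013, edgeR) but below a log2 fold change of 1. The median over these 7 was 1.60 on day 1 and 1.96 on day 14, against 0.00 and 0.05 over all genes. Without F4/80- replicate 2 of day 1 only 3 members were called on that day. The neutrophil and basophil marker levels of F4/80- libraries given above moved with this comparison, and their part in it was not tested.

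Against neutrophils the members split. On day 1, 4 were called higher in CX3CR1+ macrophages, namely Gbp3 (log2 3.24, SE 0.26), Gbp4 (3.77, SE 1.08), Gbp5 (2.28, SE 0.42) and Gbp9 (1.55, SE 0.43), with edgeR adjusted p between 3.4e-08 and 0.0058. These populations differ widely, and 51.0% of all genes tested were called in either direction, 26.9% as higher. All members called were higher, so the 26.9% is the matching share. With 8 tested members, Gbp4 among them, the count was not tested against that share. On day 14, 5 members were called, beside 48.0% of all genes, 27.1% as higher. They were Gbp3 (log2 5.06, SE 0.30), Gbp4 (6.00, SE 1.42), Gbp5 (3.48, SE 0.45), Irgm1 (1.62, SE 0.37) and Gbp2 (1.54, SE 0.32), with edgeR adjusted p between 1.5e-09 and 0.0017. Without Gbp4 the counts were 3 and 4 of 7. For Gbp4 on day 14 the 2 neutrophil libraries held 1 count in all against 92 counts in CX3CR1+ macrophages, a ratio of 74.5 with a 95% counting interval of 13.04 to 2975. Gbp7 and Igtp overlapped between the populations on both days, as did Gbp2 and Irgm1 on day 1, and Gbp9 did not pass on day 14 (0.60, SE 0.43, edgeR adjusted p = 0.22). Without neutrophil replicate 2 of day 1 only 2 members were called on day 1, Gbp4 and Gbp9 being lost. Without TMM factors the median of all genes moved by 0.57 on day 1 and 0.51 on day 14 in this comparison.

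**Figure D3:**
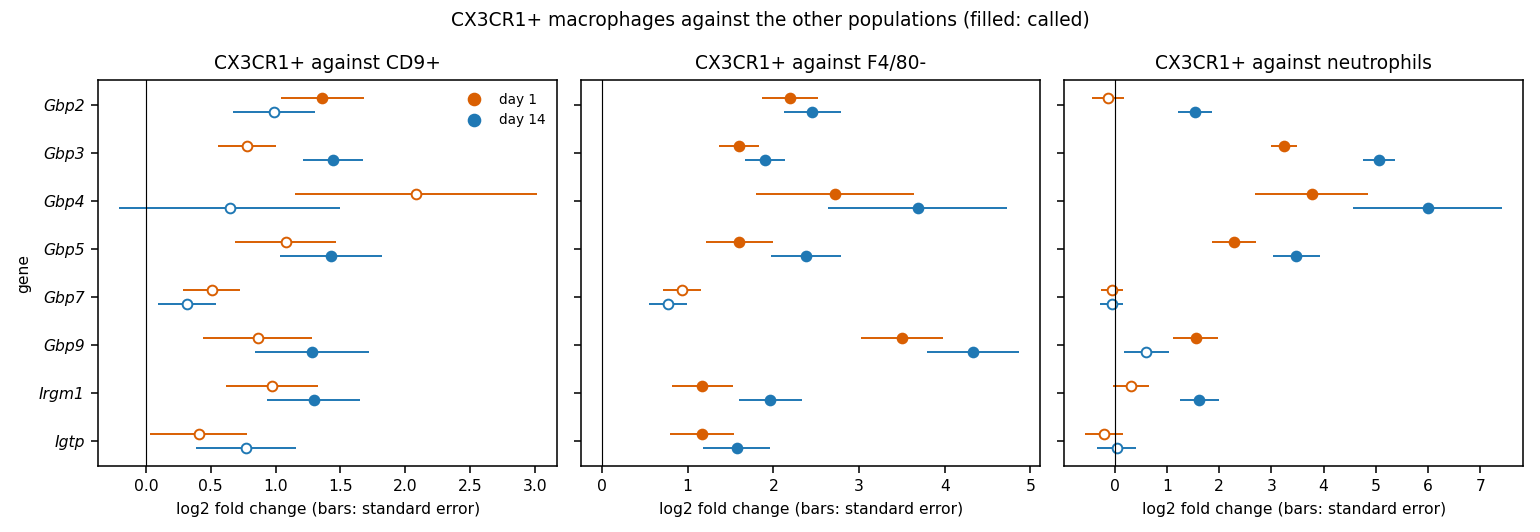
Log2 fold change of CX3CR1+ macrophages against CD9+ macrophages, F4/80- cells and neutrophils for the 8 tested members on day 1 (orange) and day 14 (blue). Points are estimates, bars their standard error, and filled points were called. All points lie right of 0 in the first and second panels, up to 4.34 for Gbp9, while Gbp7 and Igtp stay near 0 against neutrophils.

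Within each population, day 14 was compared with day 1. In CX3CR1+ macrophages no member was called, by edgeR or DESeq2, and none had an unadjusted p under 0.05, where 5.86% of all genes tested were called. The values leaned upwards in Irgm1 (log2 0.69, SE 0.35, edgeR adjusted p = 0.23), Gbp5 (0.63, SE 0.37, 0.31), Gbp2 (0.48, SE 0.31, 0.35) and Gbp3 (0.31, SE 0.22, 0.42), none of which passed. In these 4 genes both libraries of day 14 lay above both of day 1, and in Gbp7 both lay below. Such a lack of overlap, in either direction, held for 63.1% of all genes tested. The interval of Irgm1, from -0.05 to 1.42, includes both 0 and more than a doubling.

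In CD9+ macrophages no member was called either, while 8.23% of all genes tested were, and 1 member had an unadjusted p under 0.05. This was Gbp2, at a log2 change of 0.85 (SE 0.33, adjusted p = 0.086, edgeR), which did pass with scaling by library size only (1.07, edgeR adjusted p = 0.032) and without CD9+ replicate 2 of day 1 (1.29, edgeR adjusted p = 0.030). DESeq2 called none. In F4/80- cells no member was called, none had an unadjusted p under 0.05, DESeq2 called none, and 3.25% of all genes were called. In neutrophils 2 members fell, Gbp3 by 1.51 (SE 0.33, adjusted p = 0.0029, edgeR) and Gbp2 by 1.18 (SE 0.32, edgeR adjusted p = 0.013) on the log2 scale. There 14.1% of all genes tested were called, 10.9% as lower. Gbp9 had a value of the other sign, 0.86 (SE 0.44, edgeR adjusted p = 0.17), which did not pass. The call of Gbp2 was lost without neutrophil replicate 1 of day 1 (edgeR adjusted p = 0.11), replicate 1 of day 14 (0.059) or replicate 2 of day 14 (0.098), whereas that of Gbp3 was kept in all 16 fits that leave out a library. The summed macrophage markers of neutrophil libraries were also lower on day 14, 183 to 188 CPM against 590 to 592 CPM, and their part in these changes was not tested.

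**Figure D4:**
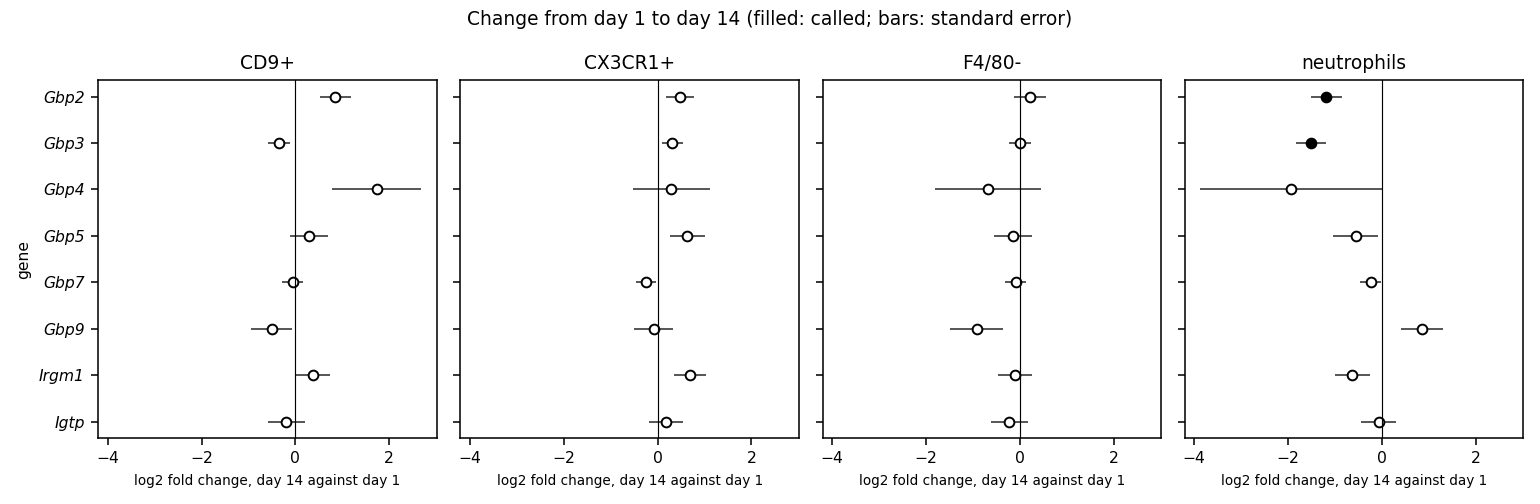
Log2 fold change from day 1 to day 14 of the 8 tested members in each population, with standard errors as bars. Filled points were called. They are Gbp2 and Gbp3 in neutrophils, both left of 0, and no other point is filled.

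Whether the change over time differed between populations was tested as an interaction. Between CX3CR1+ and CD9+ macrophages no member passed with edgeR or DESeq2, none had an unadjusted p under 0.05, and 2.28% of all genes tested were called. The largest value above 0 was that of Gbp3, 0.66 (SE 0.32, adjusted p = 0.32, edgeR). Between CX3CR1+ macrophages and F4/80- cells no member passed with either tool, none had an unadjusted p under 0.05, and 1.01% of all genes were called. Between CX3CR1+ macrophages and neutrophils 2 members were called, where 9.09% of all genes were, 7.30% as higher. Their log2 differences in change were 1.82 for Gbp3 (SE 0.40, adjusted p = 0.0068, edgeR) and 1.66 for Gbp2 (SE 0.44, edgeR adjusted p = 0.023). Irgm1, at 1.31 (SE 0.50, edgeR adjusted p = 0.11), was called with the replicate block (1.30, edgeR adjusted p = 0.013).

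Gbp8 and Iigp1 were below the level tested, and the order of groups differed from that of the other members. Gbp8 had 0 counts in both CD9+ libraries of day 1 and 12 and 14 counts on day 14. Its mean level on day 14 was 4.86-fold a floor of 3 counts per library on day 1, a ratio without an interval. Its counts in CX3CR1+ macrophages were 23 and 10 on day 1 and 9 and 8 on day 14, or 0.523 to 1.01 CPM. Iigp1 had 6 and 0 counts in CD9+ libraries of day 1 and 24 and 21 counts on day 14, or 2.30 and 2.13 CPM, its highest level. CX3CR1+ macrophages had 11 and 11 counts on day 1 and 13 and 22 counts on day 14. Both genes were at 0 or 1 count in the neutrophil libraries of day 14. A fit without the filter gave Gbp8 an edgeR adjusted p of 0.018 for the time change in CD9+ macrophages, and Iigp1 one of 0.15. For CX3CR1+ against CD9+ macrophages on day 14 it gave log2 differences of -0.71 (SE 1.08) for Gbp8 and -0.44 (SE 1.17) for Iigp1. Neither passed, at edgeR adjusted p of 0.78 and 0.89.

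Other genes of the pathway were taken from fixed lists. Of 21 other interferon-inducible GTPases, 15 were in the table and 11 were tested. In CX3CR1+ against CD9+ macrophages 3 of these 11 were higher on day 1 and 8 on day 14, with no call of the opposite sign, beside the 1.88% and 4.55% of all genes called higher. The median log2 difference of the list was 0.90 on day 1 and 1.65 on day 14. Irgm2, the third Irgm regulator, was higher on day 1 by 1.63 (SE 0.24, edgeR adjusted p = 0.00026), as were 9930111J21Rik2 by 1.34 (SE 0.28) and 9930111J21Rik1 by 1.25 (SE 0.24). On day 14 the antiviral dynamin-like GTPases Mx2 and Mx1 were higher by 2.97 (SE 0.59) and 1.99 (SE 0.29), and the very large GTPase genes Gm1966 and Gm4070 by 1.94 (SE 0.17) and 1.75 (SE 0.38), with edgeR adjusted p of at most 0.0026. The day 1 count was 1 without CD9+ replicate 2 of day 1 and with only the groups compared. Against F4/80- cells 9 of the 11 were higher on day 1 and 11 on day 14, beside 10.2% and 11.1% of all genes called higher. Against neutrophils 6 and then 7 were higher, beside 26.9% and 27.1% of all genes. It was not checked whether genes of this list, or of the lists below, passed the filter through CX3CR1+ macrophages alone. Their counts are therefore a description. Over time none was called in CX3CR1+ macrophages. In CD9+ macrophages 1 fell, Mx2, by 1.92 (SE 0.59, edgeR adjusted p = 0.036), where 3.48% of all genes were called lower. That call was lost with scaling by library size only (edgeR adjusted p = 0.055), with only the groups compared (edgeR adjusted p = 0.11) and in 7 of the 16 fits that leave out a library, with either CD9+ library of day 14 among them.

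Of 17 interferon receptors, kinases and transcription factors, 16 were tested, and the numbers higher in CX3CR1+ than in CD9+ macrophages were 1 on day 1 and 6 on day 14, beside 1.88% and 4.55% of all genes. Ifngr1, the ligand-binding chain of the interferon-gamma receptor, was 448 to 480 CPM against 210 to 227 CPM on day 1, a log2 difference of 1.09 (SE 0.11, adjusted p = 8.7e-06, edgeR). On day 14 Ifngr2, its signalling chain, was higher by 1.09 (SE 0.15), Irf9, the DNA-binding part of the ISRE complex, by 1.25 (SE 0.19), and Irf7, which amplifies type I interferon, by 1.24 (SE 0.23). Stat2 was higher by 1.23 (SE 0.23) and Irf8, a myeloid regulator, by 1.06 (SE 0.17), and the edgeR adjusted p of these 5 genes were at most 0.00088. Without CD9+ replicate 1 of day 14, Ifngr2 (0.999) and Irf7 (0.87) were under the fold threshold, as was Irf8 (0.997) without CD9+ replicate 2. Irf1 (87.2 to 99.0 CPM in CX3CR1+ macrophages and 51.3 to 64.1 CPM in CD9+ macrophages), Ifnar1 (131 to 132 against 84.4 to 107 CPM) and Ifnar2 (96.6 to 104 against 54.9 to 55.6 CPM) were not called on day 14, Irf1 and Ifnar2 because their log2 differences of 0.69 and 0.86 were under the fold threshold. Over time no gene of this list was called in CD9+, CX3CR1+ or F4/80- cells with the fold threshold, and 2 were in each of them without it. In neutrophils 3 of the 16 fell, where 10.9% of all genes did, among them Irf8 by 1.63 (SE 0.24, edgeR adjusted p = 0.00013). The 8 interferon ligands of the lists were not analysed here.

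Further lists were counted for the same pair of macrophage populations, beside 1.88% of all genes called higher and 6.36% lower on day 1, and 4.55% higher on day 14. Of 23 tested genes of the interferon-gamma response outside the GTPases, 2 were higher in CX3CR1+ macrophages on day 1, Serpina3g (log2 1.88, SE 0.60) and the costimulatory receptor Cd40 (1.21, SE 0.36). Lower on day 1 were Nos2, the inducible nitric oxide synthase (-3.60, SE 0.35), and Cd274, which encodes PD-L1 (-1.93, SE 0.24). On day 14, 2 were higher, Slamf8 (1.66, SE 0.51) and Cd40 (1.04, SE 0.36). The day 1 call of Serpina3g was lost in 14 of the 16 fits that leave out a library. It was also lost with the replicate block (edgeR adjusted p = 0.064), without a filter (0.060), with filterByExpr (0.051) and with only the groups compared (0.27). The day 1 call of Cd40 was lost with only the groups compared (edgeR adjusted p = 0.11). Of 19 tested partners of GBPs and IRGs, which conjugate ATG8 proteins, attach ubiquitin or form the caspase-11 arm, 2 were called over both days, both higher on day 14, the inflammasome sensor Nlrp3 (1.67, SE 0.28) and the ubiquitin ligase Rnf213 (1.33, SE 0.14). Of 7 tested negative regulators the one called was Usp18 (1.32, SE 0.45), higher on day 14. The study also computed a published score of 10 interferon-stimulated genes for its bulk CD9+ and CX3CR1+ macrophages. Of these 10 genes, 5 were called over both days, all higher on day 14. They were Ifit3 (1.70, SE 0.53) and Rsad2 (1.51, SE 0.25) beside Mx1, Irf7 and Usp18, which other lists also hold. The calls of Serpina3g, Cd40, Slamf8, Usp18 and Ifit3 were lost when 1 of the libraries compared was left out, among them CX3CR1+ replicate 2 of the day for each of these genes.

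Over time the same lists held calls in both macrophage populations. Of the 23 tested interferon-gamma response genes, 2 were called higher and 4 lower in CD9+ macrophages, beside 8.23% of all genes called. The 4 lower were Nos2, Upp1, Fcgr1 and Cd274. CX3CR1+ macrophages had 1 called higher and 2 lower, beside 5.86%. In CX3CR1+ macrophages 2 of the 10 score genes rose, Cmpk2 by 1.21 (SE 0.21) and Ifit2 by 1.11 (SE 0.31), beside 2.39% of all genes called higher. In CD9+ macrophages 2 of them fell, Rsad2 by 1.64 (SE 0.25) and Oasl1 by 1.52 (SE 0.44), beside 3.48% called lower. Socs3, an inhibitor of cytokine signalling, was the one negative regulator called, and it fell by 2.82 (SE 0.27) in CX3CR1+ and by 2.43 (SE 0.26) in CD9+ macrophages. Of the partners, the ATG8 protein gene Map1lc3a rose by 1.39 (SE 0.33) in CX3CR1+ and by 1.40 (SE 0.34) in CD9+ macrophages, and Nlrp3 fell by 1.56 (SE 0.28) in the latter. Nos2 fell by 6.42 (SE 0.65) in CX3CR1+ and by 7.74 (SE 0.49) in CD9+ macrophages. In CX3CR1+ macrophages Fcgr1, which encodes an IgG receptor, fell by 1.54 (SE 0.42), and the chemokine gene Cxcl9 rose by 3.51 (SE 0.98). In CD9+ macrophages Cxcl9 had 0 counts on day 1 and 165 counts on day 14, Serpina3g rose by 2.53 (SE 0.61) and Upp1 fell by 2.67 (SE 0.45). The calls of Ifit2, Oasl1, Map1lc3a, Serpina3g and, in CX3CR1+ macrophages, Fcgr1 and Cxcl9 were lost when 1 of the libraries compared was left out. Among these libraries was CX3CR1+ replicate 1 of day 14 for the calls in that population. In CD9+ macrophages they included replicate 1 of day 14 for Oasl1 and Serpina3g and replicate 2 for Map1lc3a. The call of Fcgr1 in CX3CR1+ macrophages was also not made by DESeq2. With only the groups compared, the CD9+ calls of Upp1 (edgeR adjusted p = 0.062), Map1lc3a (0.11), Serpina3g (0.12) and Oasl1 (0.22) were lost. That of Oasl1 was also lost with scaling by library size only (edgeR adjusted p = 0.051).

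Over the 16 libraries, the genes whose log2 CPM most resembled the mean standardised profile of the 8 tested members were Zbp1 (Pearson r 0.945), Tlr7 (0.932), Asah1 (0.932), Kctd21 (0.929) and Naip5 (0.924). Zbp1 encodes a sensor of Z-form nucleic acid, Tlr7 a receptor for single-stranded RNA and Naip5 a sensor of bacterial flagellin. Zbp1 had a mean of 67.6 CPM in CX3CR1+ macrophages on day 14 and 21.8 CPM in CD9+ macrophages. For single members the closest gene was Ly6e for Gbp3 (0.995), Trim26 for Gbp9 (0.941), Arhgap17 for Gbp5 (0.936), Kctd21 for Gbp2 (0.906), Ids for Irgm1 (0.906) and Cyp2ab1 for Gbp4 (0.905), and Gbp7 and Igtp were closest to each other (0.919). The 28 pairs of members correlated at -0.10 to 0.92, with a median of 0.61. These correlations are descriptions over libraries that share populations and sorts, and they carry no test.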

How the data were processed

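Myeloid populations sorted from interface tissue were profiled by RNA-seq with the SMART-Seq Stranded kit. The authors removed adapters (Cutadapt), mapped reads to mm10 (STAR), assigned them to Gencode exons and deposited raw counts per gene, without normalization, in 16 libraries. The counting tool's handling of multiply mapped reads is not given in the sources used here. All per-sample columns were mapped to labelled samples, 0 remaining unmapped. In the table of 20200 genes, the smallest total of a gene was 17 counts, so genes below this are not in it.

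Groups were taken from the sample titles. The 11998 genes with a group mean of at least 3 CPM, by library size, in at least 1 of 8 groups were scaled by TMM. Tests used edgeR 4.0.16 under R 4.3.3 (glmQLFit, glmQLFTest), in 1 model with a mean per group over all libraries. Thresholds for a call were an adjusted p (Benjamini-Hochberg) of 0.05 and a log2 fold change of 1 in either direction. Libraries are pools of mice, and p-values measure the spread between pools. The study's total of mice is too small for a separate pool per library, so libraries of a day that share a number were taken as 1 pool. The replicate block accounts for this between populations and in the interactions, and the main model does not. For changes over time within a population the block tied equal numbers across days, although these came from different mice. Within a day, deviations from group means of libraries sharing a number correlated at 0.0132 to 0.144, with 3 of 12 pairs above 0.1. The 2 libraries of each group differed by more than counting error (chi-square per degree of freedom 5.13 to 108), so none was treated as a duplicate. Counting intervals and floors (3 counts) describe counting error alone, because PCR copies were not told apart by molecular identifiers. Exon lengths came from Gencode M21 on the same build, and promoter windows from RefSeq. The steps were tested on simulated counts. Alternatives were other scalings, other filters, DESeq2 1.42.0, no fold threshold, only the groups compared, the replicate number as a block, and leaving out each library.

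The members and lists were chosen with earlier results of these data known. All members are named. A gene of another list is named with its values if it was called in the time change of CX3CR1+ or CD9+ macrophages or between them and was among the 4 largest changes of its list there, or if it is a main interferon receptor or transcription factor. One further gene that this rule names is not reported here.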

Additional observations from a re-analysis of the deposited data

Results flagged for a closer look

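The change from day 1 to day 14 differed between CX3CR1+ macrophages and neutrophils for 2 genes, by a test of the interaction. Gbp3 was 55.5 CPM on average on day 1 and 68.8 CPM on day 14 in CX3CR1+ macrophages, against 5.83 and 2.04 CPM in neutrophils, and its log2 difference in change was 1.82 (SE 0.40, adjusted p = 0.0068, edgeR). For Gbp2 the difference was 1.66 (SE 0.44, adjusted p = 0.023, edgeR), with 30.9 and 43.2 CPM in CX3CR1+ macrophages against 33.6 and 14.8 CPM in neutrophils. Without any 1 library, the Gbp3 value stayed between 1.38 and 2.15 and was called each time. The call of Gbp2 was lost without any of 6 libraries, namely CX3CR1+ replicate 2 of day 1, either CX3CR1+ replicate of day 14, neutrophil replicate 1 of day 1 and either neutrophil replicate of day 14, with edgeR adjusted p between 0.063 and 0.10.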

How the results depend on the processing

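Of the 32 calls of single members, those of Gbp4 included, 31 held under each of the 9 alternatives that kept all libraries. The alternative without the fold threshold reuses the main fit and cannot lose a call. None changed direction under any alternative, but many were lost without a single library. The call not kept was Gbp2 in CX3CR1+ against CD9+ macrophages on day 1 with only the groups compared, where the count fell from 1 to 0. That count was 4 with library size only and 2 without a filter, with filterByExpr, without the fold threshold, with DESeq2 and with the replicate block. In CD9+ macrophages over time the count was 1, from 0, with library size only, without a filter and with filterByExpr. In the comparisons with CD9+ and with F4/80- cells all tested members stayed above 0 in 200 of 200 values on each day. Against neutrophils 147 and 175 of 200 did. These values include the main fit itself, used without the fold threshold, and fits without a library of a group not compared. Such fits can hardly move the sign, so these counts are a description. The upper quartile moved the median of all genes by 0.27 and 0.21 in the comparison with neutrophils.

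Leaving out 1 library at a time, where the remaining library of its group is assumed to vary like the others, gave 0 to 1 members over time in CD9+ macrophages (1 without either day 1 library) and 1 to 2 in neutrophils. CX3CR1+ against CD9+ macrophages gave 0 to 2 on day 1 (2 without either CD9+ library of day 14) and 1 to 4 on day 14. Against F4/80- cells it gave 3 to 8 and 5 to 7, against neutrophils 2 to 4 and 5, and 1 to 3 in the interaction with neutrophils. All other time changes and interactions stayed at 0. With the replicate block the count in CX3CR1+ against CD9+ macrophages was 2 on day 1, and the block changed 3 calls of Gbp2 and Irgm1 and that of Serpina3g, given in the report, and no other call of a member or named gene. With 2 libraries per group and few counts of Gbp4, Gbp8 and Iigp1, small changes were not detectable.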

Other observations

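Outside the comparisons above, Gbp8 and Iigp1 had their highest mean levels in CD9+ macrophages of day 14, at 1.152 and 1.42 CPM and at 2.30 and 2.13 CPM. None of the 8 tested members was highest there. These means rest on few counts, and against CX3CR1+ macrophages of day 14 neither gene passed in the fit without the filter. The CD9+ libraries of day 14 held the eosinophil markers Prg2 (3927 to 6237 CPM) and Epx (1816 to 3066 CPM). In CD9+ libraries of day 1 these were 281 to 390 and 140 to 151 CPM. The part of these cells in the levels of Gbp8 and Iigp1 was not tested.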
